A study of Mus musculus with 4 samples.

Results

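A set of 8 genes of the excitatory neurons of cortex and hippocampus was followed in mouse septal tissue: Neurod6, Neurod2, Neurod1, Bhlhe22, Tbr1, Emx1, Mef2c and Lamp5. They were picked by symbol from the 15409 gene rows of the deposited tables, and all 8 were listed and passed the filter on low values. Emx1 passed it only through experiment 1, where its level was higher. The choice used the values themselves, since these genes had been noted as lower in TCRb-/- and in experiment 2. Their differences by genotype and by experiment are therefore given as descriptions, with no p-value.

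The tissue was brain septum, the midline region between the lateral ventricles, from mice that had all been restrained for 30 min on 3 days and killed 1.5 h after the last restraint. The genotypes were TCRb-/-, which lacks the T cell receptor beta chain, and wild type (WT). Each genotype had 2 libraries, each from the pooled tissue of 4 to 5 mice, and replicate 1 came from experiment 1 and replicate 2 from experiment 2. Strain, sex and age were not given in the sources used here, and the spread between replicates is that between pools of different experiments.

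In the dorsal telencephalon, or pallium, glutamatergic neurons are specified by a cascade of transcription factors. Proneural basic helix-loop-helix (bHLH) proteins are followed by the NeuroD factors, which bind E-box DNA together with E proteins and drive neuronal differentiation. Tbr1 and Emx1 mark cortical identity, and Mef2c acts later, on synapses and neuronal activity. The septum itself is mostly built of GABAergic and cholinergic neurons, so these factors are better known from the cortex and hippocampus that surround it.

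The libraries held 19988137 to 26210790 reads. The targeted gene was read first: Trbc2, a constant segment of the receptor beta chain, had 0 reads in both TCRb-/- libraries and 169 and 86 in the WT libraries. Of 12 septum markers, 11 were listed, and their summed level ran from 544 to 581 counts per 1000000 reads (CPM) in all 4 libraries. Their median log2 difference, experiment 2 minus experiment 1, was 0.25. Of these 11, limma called 2 higher and 0 lower in experiment 2, and 4 higher and 1 lower with the experiment's partner factor, genotype, in the model. Over all genes tested, 8.95% were called higher and 14.7% lower without that factor. Nkx2-1 was not analysed here. The libraries differed in genes of neighbouring tissue. The 12 striatum markers summed to 4820 and 2903 CPM in the WT pools of experiments 1 and 2, and to 5388 and 1287 CPM in those of TCRb-/-. The 10 choroid plexus markers summed to 1308 and 4171 CPM in WT and to 2138 and 6862 CPM in TCRb-/-. The 9 thalamus markers summed to 704 and 1146 CPM in WT and to 725 and 1599 CPM in TCRb-/-, and limma called 5 of them higher and 0 lower in experiment 2. None of these markers was at 0 reads in any library. Their part in the results below was not tested. In bulk tissue, fewer cells of a type and less RNA per cell cannot be told apart.

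Neurod6, Neurod2 and Mef2c are shown by the 250 bases upstream of their annotated start, because they had the most negative mean genotype differences among the 8 genes. Sequences are from RefSeq (GRCm38.p6, the assembly known as mm10), on the strand of the gene, and capitals mark E-boxes (CANNTG, a palindrome in its fixed letters). The windows are chr6:55681264-55681513 on the minus strand for Neurod6, chr11:98329646-98329895 on the minus strand for Neurod2, and chr13:83503784-83504033 on the plus strand for Mef2c, the most upstream of 3 annotated Mef2c windows.
Neurod6: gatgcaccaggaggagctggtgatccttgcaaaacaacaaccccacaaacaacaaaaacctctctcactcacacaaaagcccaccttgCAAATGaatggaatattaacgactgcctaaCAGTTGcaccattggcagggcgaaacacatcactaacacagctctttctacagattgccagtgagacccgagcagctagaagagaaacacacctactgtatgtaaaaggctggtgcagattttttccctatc
Neurod2: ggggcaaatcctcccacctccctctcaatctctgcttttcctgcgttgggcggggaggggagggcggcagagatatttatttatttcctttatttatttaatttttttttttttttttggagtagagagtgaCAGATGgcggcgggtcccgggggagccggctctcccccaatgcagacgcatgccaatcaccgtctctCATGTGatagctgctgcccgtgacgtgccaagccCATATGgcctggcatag
Mef2c: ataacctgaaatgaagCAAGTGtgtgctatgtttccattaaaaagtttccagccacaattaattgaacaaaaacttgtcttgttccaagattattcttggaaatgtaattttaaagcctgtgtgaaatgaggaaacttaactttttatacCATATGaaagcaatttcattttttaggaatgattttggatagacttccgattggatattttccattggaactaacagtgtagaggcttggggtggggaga
The Neurod6 window held 2 E-boxes, CAAATG and CAGTTG, which begin 162 and 132 bases before the start. The Neurod2 window held 3, among them CAGATG at 118 bases. The Mef2c window held 2, at 234 and 100 bases. An E-box was found in 66.2% of 32536 distinct upstream windows of the same length, and CAGATG (either strand, a subset of CANNTG) in 14.4%. The MEF2 consensus, searched on both strands, was found in none of the 3 windows and in 2.89% of all. GC content was 46.0% for Neurod6, 52.8% for Neurod2 and 33.6% for this Mef2c window, against a mean of 53.3% over all windows. Of the 8 genes, 7 had an entry in the table. These matches are letters in a window and not measured sites.

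Neurod6 and Neurod2, bHLH activators of neuronal differentiation, varied most. Neurod6 (chromosome 6, 55677822 to 55681263, protein-coding) had 31.7 and 3.49 CPM in the WT pools of experiments 1 and 2 and 22.0 and 1.35 in TCRb-/-. Both libraries of experiment 1 were high and both of experiment 2 low, while the genotypes overlapped. In experiment 1 the level was 9.09 times that in experiment 2 for WT (exact 95% interval of the ratio 7.20 to 11.6) and 16.3 times for TCRb-/- (11.1 to 25). These intervals, like all others here, cover counting error only, because amplified reads are not independent molecules.

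Neurod2 (chromosome 11, 98325415 to 98329648, protein-coding) had 17.0 and 2.28 CPM in WT (experiments 1 and 2) and 13.8 and 0.700 in TCRb-/-. The order of the 4 libraries was that of Neurod6. The ratio of experiment 1 to experiment 2 was 7.46 in WT (5.57 to 10.2) and 19.7 in TCRb-/- (11.6 to 36.4), the latter resting on 339 and 14 reads. Among all 13912 genes tested, Neurod6 had the lowest difference between experiments and Neurod2 the third lowest, at -3.08 and -2.79 on the log2(CPM + 1) scale. That scale understates the change of low genes. The ranks are descriptions only, because this contrast took part in the choice of the genes.

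Neurod1, the NeuroD factor best known from newly formed neurons and from granule cells, was low in every library. It lies on chromosome 2 from 79452521 to 79456751 and had 2.86 and 1.79 CPM in the WT pools of experiments 1 and 2 and 2.77 and 2.65 in TCRb-/-. WT replicate 1 and both TCRb-/- libraries lay close together, and WT replicate 2 was lowest. The exact intervals of all 4 libraries overlapped, although the ratio of experiment 1 to experiment 2 was 1.60 in WT (1.08 to 2.41) and 1.04 in TCRb-/- (0.718 to 1.52). The exons of Neurod1 share 201 bases with Cerkl on the same strand and 154 bases with Gm26755 on the other. Reads there may not have been counted for Neurod1.

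Bhlhe22, a bHLH repressor of pallial neurons that works with Prdm8, differed in pattern from the others. It lies on chromosome 3 from 18054174 to 18057517 and had 9.69 and 4.61 CPM in WT (experiments 1 and 2) and 6.51 and 7.75 in TCRb-/-. The highest and the lowest library were both WT. Between experiments 1 and 2 the ratio was 2.1 in WT (1.67 to 2.67) and 0.839 in TCRb-/- (0.669 to 1.05). It was the only gene of the 8 whose experiments overlapped.

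Tbr1 and Emx1 define cortical identity. Tbr1, a T-box factor of deep-layer cortical neurons (chromosome 2, 61802930 to 61814114), had 27.5 and 13.1 CPM in the WT pools of experiments 1 and 2 and 20.9 and 12.9 in TCRb-/-. The libraries of experiment 2 were almost equal, and those of experiment 1 were higher and differed from each other. Emx1, a homeobox factor of the dorsal telencephalon (chromosome 6, 85187438 to 85204462), had 1.72 and 0.895 CPM in WT (experiments 1 and 2) and 1.83 and 0.901 in TCRb-/-. Its level in experiment 2 was about that of 20 reads or fewer per library, and the genotypes matched closely within each experiment. Emx1 passed the 1 CPM filter only through experiment 1, with means of 1.77 CPM there and 0.898 in experiment 2.

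Mef2c, a MADS-box factor that shapes synapse number in excitatory neurons, is also known from interneurons and microglia. It lies on chromosome 13 from 83504034 to 83667080 and had 167 and 73.5 CPM in the WT pools of experiments 1 and 2 and 123 and 56.2 in TCRb-/-. TCRb-/- was lower than WT in each experiment, at 0.739 times in experiment 1 (0.706 to 0.774) and 0.765 times in experiment 2 (0.708 to 0.825). Between experiments 1 and 2 the ratio was 2.27 in WT (2.15 to 2.40) and 2.20 in TCRb-/- (2.05 to 2.35). Mef2c thus had a like ratio for each factor in both levels of the other.

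Lamp5 is no transcription factor but a lysosome-associated membrane protein family member of pallial excitatory neurons and of a class of interneurons. It lies on chromosome 2 from 136052239 to 136069917 and had 85.3 and 63.3 CPM in WT (experiments 1 and 2) and 96.5 and 48.2 in TCRb-/-. TCRb-/- held both the highest and the lowest library. The ratio between experiments 1 and 2 was 1.35 in WT (1.26 to 1.44) and 2.00 in TCRb-/- (1.86 to 2.16).

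**Figure D1:**
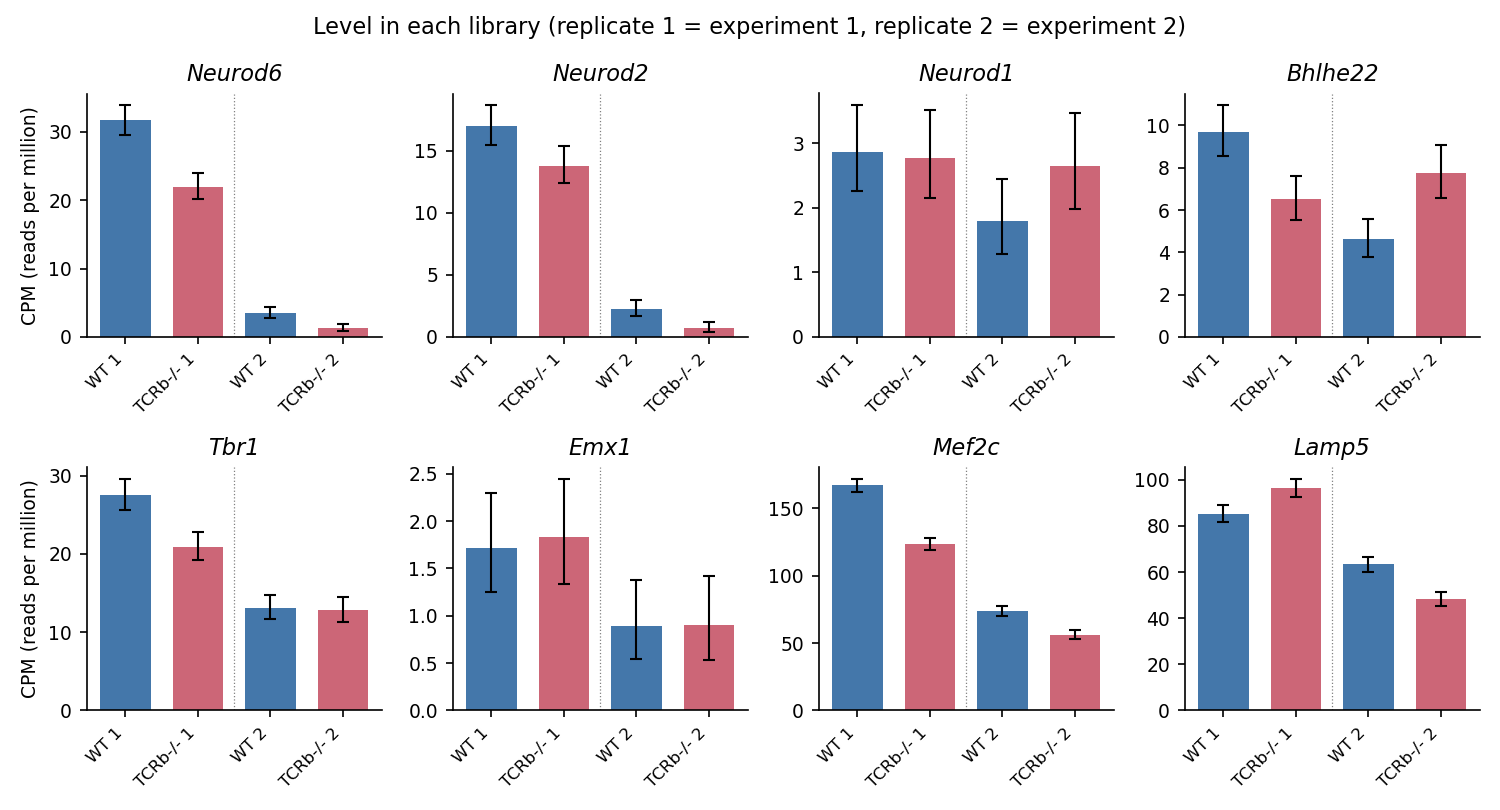
Level of each gene in each library in CPM, with bars coloured by genotype and error bars giving the exact 95% interval of the read count (counting error only). Neurod6 and Neurod2 drop to 3.49 CPM or less in both libraries of experiment 2, whereas Neurod1 and Bhlhe22 show no such drop.

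Levels can be compared between genes only per length of transcript, here CPM per kilobase of merged exons. Over the 4 libraries the mean was highest for Lamp5 (25 ± 7.40, SD, n = 4 for each gene), followed by Neurod6 (6.81 ± 6.83), Mef2c (6.68 ± 3.19), Tbr1 (3.39 ± 1.28), Neurod2 (2.69 ± 2.60), Bhlhe22 (2.14 ± 0.639), Neurod1 (0.922 ± 0.181) and Emx1 (0.612 ± 0.233). Lamp5 lay above the other members in every library. From Neurod6 to Bhlhe22 the range of each neighbour in this order overlapped that of the next. Within libraries, Mef2c nevertheless lay above Tbr1 in every one. Neurod6 went from rank 2 in both libraries of experiment 1 to ranks 4 and 6 in WT and TCRb-/- replicate 2. Bhlhe22 lay above Neurod1 in every library. Neurod1 also lay above Emx1 in every library, although their ranges over the libraries overlapped. The merged exons of Mef2c span 15.7 kb over many isoforms, so its level per kilobase may be too low.

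By genotype, 4 of 8 genes were lower in TCRb-/- in both experiments: Neurod6, Neurod2, Tbr1 and Mef2c. Over all genes tested, 24.5% were lower in both. It was 9 of 18 pan-neuronal genes, 6 of 12 interneuron markers and 16 of 40 other pallial transcription factors. Of the excitatory effector genes it was 7 of 37, and of the striatum markers 1 of 12. The share of the members was thus not particular to them. Emx1 was the 1 gene of 8 that was higher in both, against 27.0% of all genes. TCRb-/- replicate 2 was the lowest library for 5 of 8 members and for 31.7% of all genes. Neurod6 was at 0.694 times the WT level in experiment 1 (0.622 to 0.774) and 0.387 times in experiment 2 (0.240 to 0.607). Neurod2 was at 0.810 times (0.702 to 0.935) and 0.307 times (0.157 to 0.563). Tbr1 was at 0.760 times in experiment 1 (0.678 to 0.853) and 0.978 times in experiment 2 (0.824 to 1.16), where the interval includes no difference.

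The other members did not share this direction. Emx1 was at 1.07 and 1.01 times the WT level in experiments 1 and 2, with intervals of 0.689 to 1.65 and 0.502 to 2.00. Bhlhe22 was lower in experiment 1 at 0.672 times (0.548 to 0.822) and higher in experiment 2 at 1.68 times (1.3 to 2.18). Lamp5 went from 1.13 times (1.07 to 1.20) to 0.762 times (0.701 to 0.828), and Neurod1 from 0.967 times (0.686 to 1.36) to 1.48 times (0.965 to 2.29). In the mean log2 difference, 5 of 8 members were lower in TCRb-/-, as in their working description. Over all genes tested the median of this difference was 0.0007, so about as many genes lay below 0 as above it. The count is a description only, because the contrast took part in the choice.

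No member separated the genotypes: the ranges of TCRb-/- and WT overlapped for 8 of 8, whereas 8.04% of all genes were lower and 9.76% higher without overlap. These ranges ignore the pairing by experiment. A large difference between experiments makes them overlap even where TCRb-/- is lower in both experiments, as for Neurod6, Neurod2 and Mef2c. In limma, with Benjamini-Hochberg adjustment, 0 of 8 were called by genotype, as were 0 of 13912 genes (0%). At an unadjusted p under 0.05 it was 0 of 8, against 0.309% of all genes. With the experiment as a block, limma called Trbc2 lower and Ttr, a choroid plexus gene, higher (2 genes, 0.0144%), and 3 of 8 members had an unadjusted p under 0.05, against 5.64% of all genes. Nothing is read from these counts, since the contrast took part in the choice.

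**Figure D2:**
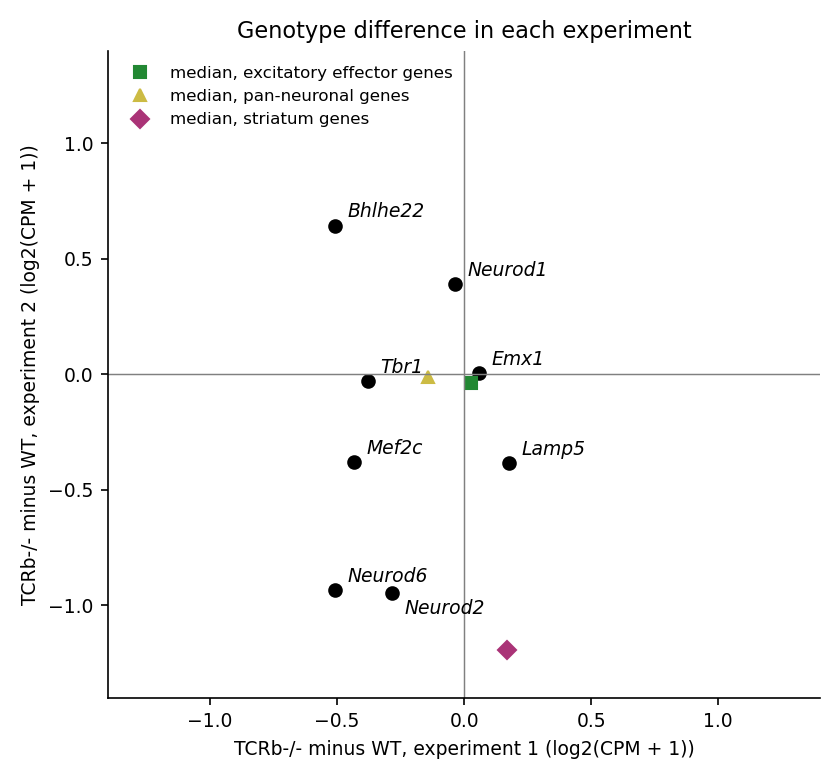
Difference TCRb-/- minus WT on the log2(CPM + 1) scale in experiment 1 (x axis) and experiment 2 (y axis), each from 1 library per genotype, for the 8 genes (circles) and the medians of 3 gene lists. Neurod6, Neurod2, Tbr1 and Mef2c lie in the lower left, Bhlhe22 at -0.51 and 0.64, and the striatum median at 0.17 and -1.19.

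Between experiments, 7 of 8 genes were lower in experiment 2 in both genotypes and without overlap, the exception being Bhlhe22. Over all genes tested, 42.2% were lower in both genotypes and 37.2% were lower without overlap. In limma, 5 of 8 were called lower (Neurod6, Neurod2, Tbr1, Mef2c and Lamp5), against a background of 14.7% of genes (23.7% in either direction). With the block the count was 5 of 8, against 15.4%. With the trend on transcript length removed it was 6 of 8, against 8.68%. The added gene was Emx1, which passed the filter only through experiment 1. This contrast, too, took part in the choice. The members fell into 2 sizes: Neurod6 and Neurod2 with ratios of experiment means of 11.1 and 10.3, and the other 6 with ratios between 1.27 (Neurod1) and 2.24 (Mef2c). Across genes the difference between experiments was more negative for longer transcripts (Spearman rho -0.398, 13556 genes), as a description across genes that are not independent replicates. With the trend on length removed, Mef2c, the longest of the 8, moved from -1.15 to -0.91 and Neurod6 from -3.08 to -3.19.

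**Figure D3:**
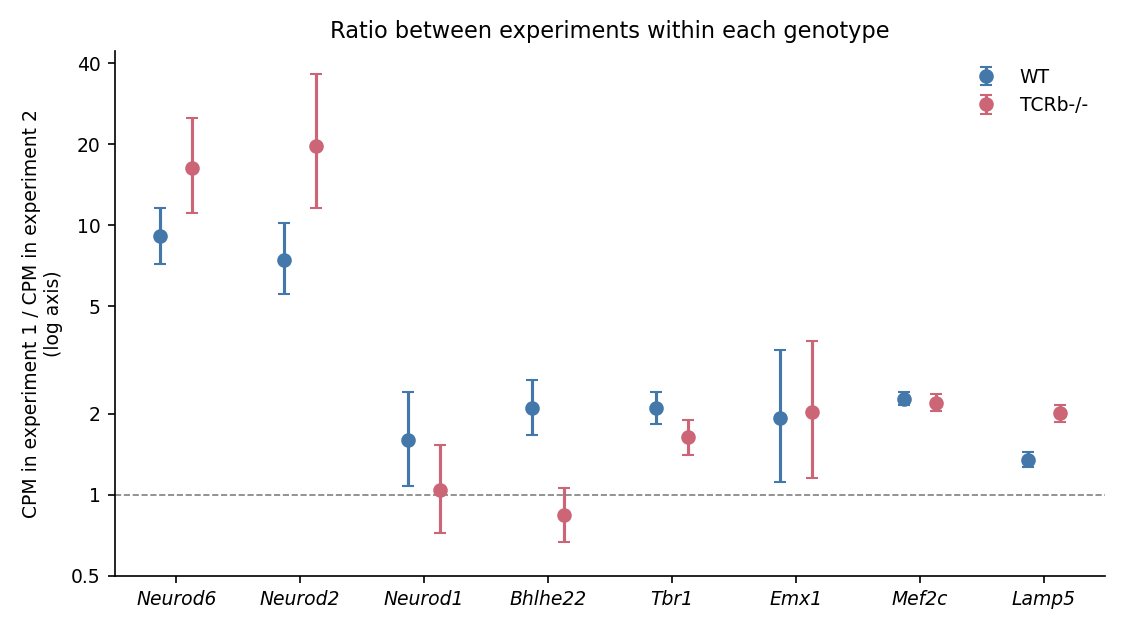
Ratio of CPM in experiment 1 to CPM in experiment 2 (log axis) within WT and within TCRb-/-, with exact 95% intervals (counting error only). Neurod6 and Neurod2 lie between 7.46 and 19.7, the other genes between 0.839 and 2.27.

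Family members and known partners of the 8 genes were called about as often as all genes. Of 31 fixed symbols, 24 were listed and 23 tested, and limma called 4 lower and 2 higher in experiment 2, against 14.7% and 8.95% of all genes. The median difference was -0.12, against -0.03 for all genes. The calls were 2 lower and 0 higher without TCRb-/- replicate 2, 2 lower and 1 higher without TCRb-/- replicate 1, and 4 lower and 0 higher without WT replicate 1. Without a moderation trend none was called (0 lower and 0 higher). Beside those described next, Hdac5 and Mapk7, regulators of Mef2 proteins, were called lower, by -0.26 and -0.31, and are named after their values were seen. With the trend on transcript length removed neither was called in limma (-0.09, adjusted p 0.485, for Hdac5 and -0.26, adjusted p 0.0999, for Mapk7), and with the block Mapk7 was not called (limma adjusted p 0.0549). Among the dimer partners of the NeuroD factors, the E protein gene Tcf4 was lower (176 and 129 CPM in the WT pools of experiments 1 and 2 and 164 and 109 in TCRb-/-; log2 difference -0.52, SE 0.09, limma adjusted p 0.00904). With the trend on length removed Tcf4 stood at -0.23 and was not called (limma adjusted p 0.0864). Tcf12, another E protein gene, had 39.2 and 36.4 CPM in the WT pools of experiments 1 and 2 and 40.6 and 35.3 in TCRb-/- and was not called.

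The Mef2 paralogues had smaller differences between experiments than Mef2c, which stood at -1.15. Mef2d had 134 and 97.7 CPM in WT (experiments 1 and 2) and 128 and 88.4 in TCRb-/- (log2 difference -0.49, SE 0.07, limma adjusted p 0.00693). Mef2a had 114 and 94.3 CPM in the WT pools of experiments 1 and 2 and 103 and 90.1 in TCRb-/- and was not called in limma (adjusted p 0.0589), but was called lower with the block (limma adjusted p 0.0492). Emx2, the paralogue of Emx1, had 4.12 and 4.11 CPM in WT (experiments 1 and 2) and 4.47 and 4.70 in TCRb-/- and was not called. Prdm8, the partner of Bhlhe22, had 2.37 and 1.43 CPM in the WT pools of experiments 1 and 2 and 2.28 and 1.80 in TCRb-/- and was not called. Of the partner list, 2 were higher in experiment 2. Eomes, a T-box factor related to Tbr1, had 7.40 and 13.7 CPM in WT (experiments 1 and 2) and 10.8 and 15.8 in TCRb-/- (limma adjusted p 0.0343). Lamp2, a paralogue of Lamp5, had 72.9 and 85.8 CPM in the WT pools of experiments 1 and 2 and 71.7 and 94.7 in TCRb-/- (limma adjusted p 0.0232).

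Of 40 other transcription factors of pallial neurons, all tested, limma called 21 lower and 4 higher in experiment 2, with a median difference of -0.35, against 14.7% and 8.95% of all genes. Bcl11b, a factor of corticospinal and of striatal neurons, had 176 and 93.4 CPM in the WT pools of experiments 1 and 2 and 185 and 48.2 in TCRb-/- (limma adjusted p 0.00941). Zbtb18, a repressor in pallial neurons, had 32.1 and 17.4 CPM in WT (experiments 1 and 2) and 32.7 and 11.0 in TCRb-/- (limma adjusted p 0.00758). Bcl11a, a paralogue of Bcl11b, had 58.2 and 46.2 CPM in WT and 58.9 and 36.1 in TCRb-/- and was called lower (limma adjusted p 0.0197), but with the trend on length removed it stood at -0.29 and was not called (limma adjusted p 0.108). Lhx9, a LIM homeobox factor, rose, from 5.90 to 23.9 CPM in TCRb-/- and from 7.10 to 13 in WT (limma adjusted p 0.0118).

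The following limits touch the transcription factor count. Without a moderation trend it was 2 lower and 1 higher. With the trend on transcript length removed it was 11 lower, without TCRb-/- replicate 1 it was 12 lower and 1 higher, and without WT replicate 1 it was 9 lower and 4 higher. Bcl11b and Foxp1 are also striatal genes, and the 12 striatum markers were all called lower in experiment 2. The part of striatal tissue in this count was not tested.

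Of 37 tested effector genes of excitatory neurons, limma called 20 lower and 4 higher in experiment 2, with a median difference of -0.41, against 14.7% and 8.95% of all genes. Slc17a7, the vesicular glutamate transporter of pallial neurons, had 178 and 20.9 CPM in WT (experiments 1 and 2) and 146 and 24.0 in TCRb-/- (log2 difference -2.79, SE 0.11, limma adjusted p 1.43e-04). Experiment 1 lay 6.09 times above experiment 2 in TCRb-/- and 8.52 times in WT, and within experiment 2 TCRb-/- was the higher. Rtn4rl2, a Nogo receptor homologue, had 8.51 and 1.21 CPM in the WT pools of experiments 1 and 2 and 6.10 and 1.75 in TCRb-/- (limma adjusted p 0.00501). Kcnh3, a potassium channel gene, had 81.2 and 33.8 CPM in WT (experiments 1 and 2) and 91.1 and 15.7 in TCRb-/- (limma adjusted p 0.00705). Arpp21, a phosphoprotein gene also strong in striatum, had 1438 and 825 CPM in the WT pools of experiments 1 and 2 and 1490 and 305 in TCRb-/- (limma adjusted p 0.0233). Camk2a, a kinase of excitatory synapses, had 241 and 175 CPM in WT (experiments 1 and 2) and 304 and 163 in TCRb-/- and was called lower. Without WT replicate 1 the effector count was 13 lower and 2 higher, without TCRb-/- replicate 1 it was 14 lower and 1 higher, and without TCRb-/- replicate 2 it was 19 lower and 1 higher. Without a moderation trend it was 8 lower and 0 higher.

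Over all genes tested, limma called 14.7% lower and 8.95% higher in experiment 2. Genes of neurons in general had no common direction: of 18 pan-neuronal genes 4 were called lower and 4 higher, with a median of -0.03. Relative to that median, all 8 members were more negative between experiments in the mean of both genotypes, by -0.23 (Neurod1) to -3.05 (Neurod6). Relative to the effector median, 6 of 8 were more negative and Neurod1 and Bhlhe22 were not. The median of all genes was -0.03 as well, and this contrast took part in the choice of the members. Nothing about neurons in general is therefore read from these counts. Mef2c and Lamp5 are also read in other cell types. Of 12 interneuron markers limma called 3 lower (Vip, Reln and Npy) and 1 higher (Pvalb), and their summed level ran from 1723 to 1759 CPM in TCRb-/- and from 1983 to 2016 CPM in WT. Of 8 microglia markers 1 was called lower (Cx3cr1; not with the trend on length removed, limma adjusted p 0.0640), and their sum ran from 146 to 149 CPM in TCRb-/- and from 136 to 144 CPM in WT. None of these markers was at 0 reads in any library, and their part in Mef2c and Lamp5 was not tested.

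**Figure D4:**
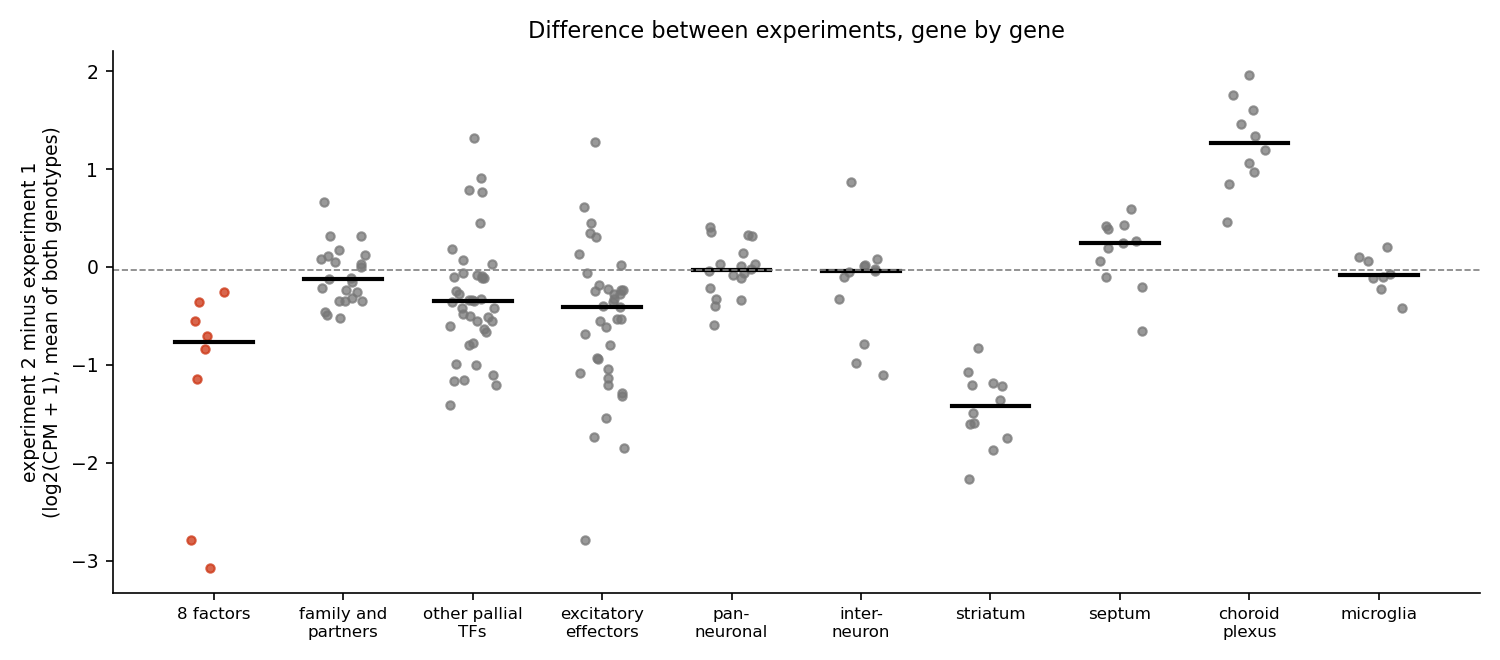
Difference experiment 2 minus experiment 1 on the log2(CPM + 1) scale, mean of both genotypes, for each tested gene (points, spread sideways for legibility) of 10 lists, with list medians (bars) and the median of all genes (dashed line). The 8 factors lie between -3.08 and -0.26 with a median of -0.77, and the pan-neuronal genes are centred at -0.03.

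Slc17a7 had the largest called difference of the effector list, and the members were also expressed per 100 Slc17a7 reads of the same library, a measure chosen after the values were seen. Neurod6 had 17.8 in WT replicate 1, 15.1 in TCRb-/- replicate 1 and 16.7 in WT replicate 2, but 5.63 in TCRb-/- replicate 2 (exact 95% interval 3.67 to 8.29). Neurod2 had 9.57, 9.44 and 10.9 in the same order, and 2.92 in TCRb-/- replicate 2 (1.58 to 4.94). In 3 of the 4 libraries, then, Neurod6 and Neurod2 kept a nearly constant ratio to Slc17a7, and TCRb-/- replicate 2 stood apart. That library was also the lowest for 12 of 12 striatum markers, and whether the differences share a source was not tested.

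Tbr1 and Mef2c changed less than Slc17a7. Tbr1 had 15.5 and 14.3 reads per 100 Slc17a7 reads in WT and TCRb-/- replicate 1, and 63.0 and 53.5 in replicate 2. Mef2c had 93.8 and 84.4 in replicate 1, and 352 and 234 in replicate 2. For these genes the libraries grouped by experiment on this measure too, in the opposite direction from their CPM. Lamp5, Bhlhe22, Neurod1 and Emx1 were likewise higher in replicate 2 on this measure. In WT replicates 1 and 2 they had 48.0 and 303, 5.45 and 22.1, 1.61 and 8.57, and 0.965 and 4.28. In TCRb-/- they had 66.0 and 201, 4.45 and 32.3, 1.89 and 11.0, and 1.25 and 3.75. The nearly constant ratio was thus seen for Neurod6 and Neurod2 only.

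**Figure D5:**
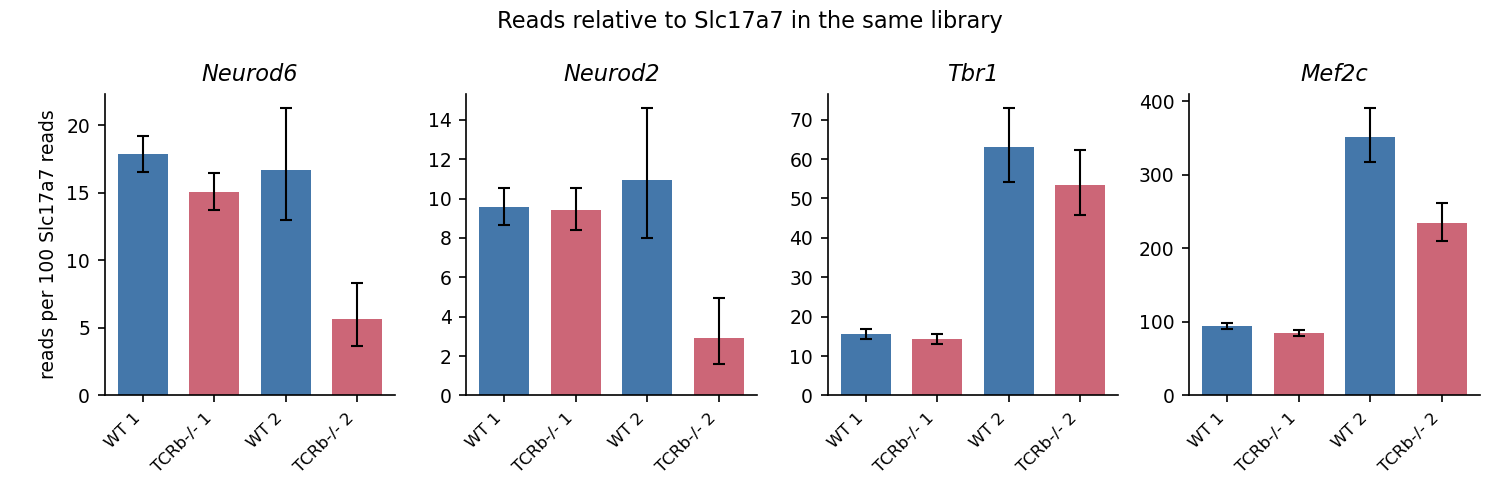
Reads of Neurod6, Neurod2, Tbr1 and Mef2c per 100 reads of Slc17a7 in the same library, with exact 95% intervals (counting error only). For Neurod6 and Neurod2 only TCRb-/- replicate 2 is low, at 5.63 and 2.92, while Tbr1 and Mef2c are higher in both libraries of experiment 2.

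The genes outside the 8 whose profile lay nearest to the mean profile of the members were sought over the 4 libraries, as the smallest Euclidean distance between log2(CPM + 1) values centred on each gene's mean. They were Fezf2 (distance 0.0745), Hrk (0.117), Slit3 (0.128), Vip (0.129) and Nmnat3 (0.130). Fezf2, a factor of deep-layer projection neurons, had 19.2 and 7.96 CPM in the WT pools of experiments 1 and 2 and 16.7 and 7.0 in TCRb-/-. Hrk, a BH3-only cell death gene, had 44.5 and 18.5 CPM in WT (experiments 1 and 2) and 39.0 and 14.6 in TCRb-/-. Of the members, Mef2c was nearest to the mean profile (0.197) and Neurod6 farthest (1.94). With 4 libraries such a profile is set largely by the difference between experiments.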

How the data were processed

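RNA from cleared, detergent-treated brain homogenate was sequenced after SMARTer ultra-low-input preparation, per the labels' protocols. The submitters' processing notes name HISAT2 2.1.0, SAMtools 1.3, HTSeq 0.9.1, R 4.0.5, limma 3.46.0 and mm10, without their roles. Strand handling is not given in the sources used here. The deposited values were log2 of CPM, with an offset of 0.5 reads, as the values showed. Solving for the library total gave whole reads for 100% of values within 0.001 reads. The 17 spike-in rows were left out.

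Reads were expressed as log2(CPM + 1), and the 13912 genes averaging 1 CPM or more were kept. Both contrasts were fitted in limma 3.58.1 under R 4.3.3 (trend, two-sided, Benjamini-Hochberg, threshold 0.05), checked on simulated data. The simulated libraries had the same fixed spread for every gene and no effect of the factor not under test. The check therefore does not cover the genotype contrast as run, where the experiments differ. TMM and median-of-ratios factors were computed from the reads, and other steps used Python 3.11.15 with scipy 1.17.1. The smallest exact permutation p for 2 against 2 is 0.333. Without the block, the error of the experiment contrast is the spread between genotypes within each experiment. The error of the genotype contrast is the spread between experiments within each genotype. Neither is a spread between like pools. Intervals are exact binomial at 95%. Lengths and positions are from GENCODE (GRCm38), with a length for 14989 of 15403 symbols.

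Replicate numbers are the experiments in the labels and so pair the libraries. Deviations from the genotype mean correlated at 0.719 across genes.

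The members and lists were chosen with earlier results of these data known. Named genes were all members, fixed single genes, the 4 largest called differences of each neuronal list, and the 5 nearest profiles. Some genes under this rule are not reported here. Foxp1, Hdac5, Mapk7, Reln, Npy, Pvalb and Cx3cr1 were named after their values were seen. Alternatives were pseudocounts, filters, scalings, a length trend, no moderation trend, the block and omission of each library. Those for counts within lists were chosen after seeing the data.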

Additional observations from a re-analysis of the deposited data

Results flagged for a closer look

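Differences with opposite signs in the 2 experiments, or in the 2 genotypes, were found for 3 of the 8 genes. Each rests on 1 library per genotype and experiment, and the difference between the differences was not tested. On the log2(CPM + 1) scale, TCRb-/- minus WT was -0.51 for Bhlhe22 in experiment 1 and 0.64 in experiment 2. Bhlhe22 also differed in sign between genotypes, with experiment 2 minus experiment 1 at 0.22 in TCRb-/- and -0.93 in WT. For Lamp5, TCRb-/- minus WT was 0.18 in experiment 1 and -0.39 in experiment 2. For Neurod1 it was -0.04 and 0.39.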

How the results depend on the processing

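The count of genes called by genotype was 0 under each pseudocount, filter and scaling, with the length trend removed and without a moderation trend, and 2 with the replicate block. It ranged from 0 to 47 with 1 library left out, with 47 without TCRb-/- replicate 1 and 1 without TCRb-/- replicate 2. The count by experiment was 3292, of which 37.8% were higher. It was 629 without a trend (20.7% higher) and 2274 with the length trend removed (48.3% higher), and 50.6% of 3227 calls were higher under quantile normalization. With 1 library left out it ranged from 1406 to 3390, with 1406, 1823 (27.8% higher) and 1637 without TCRb-/- replicate 1, TCRb-/- replicate 2 and WT replicate 1.

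Without a trend the calls in experiment 2 were 0 lower and 0 higher among partners, 2 and 1 among transcription factors, and 8 and 0 among effectors. Partners had 2 lower under TMM scaling, 2 under median-of-ratios scaling and 2 with the length trend removed. With that trend removed transcription factors had 11 lower and effectors 2 higher. With 1 library left out, partners ranged from 2 to 4 lower and 0 to 3 higher, transcription factors from 9 to 21 lower and 1 to 4 higher, and effectors from 13 to 21 lower and 1 to 5 higher. The cause of these shifts was not tested.

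For the members, 0 of 68 genotype differences and 0 of 68 experiment differences changed sign under the alternatives with all libraries. The filters and the replicate block cannot change a member's difference, so that part of each 68 was fixed in advance. Of the 68 experiment differences, 7 moved by more than the spread within experiments. That spread is between the WT and TCRb-/- libraries of the same experiment, so it holds any genotype difference. Neurod6 was -2.10 at a pseudocount of 5, Neurod2 was -3.48 at 0.1 and -1.66 at 5, and Emx1 was -0.91 at 0.1, -0.20 at 5, -0.51 under quantile normalization and -0.66 with the length trend removed. With 1 library left out, 15 of 32 genotype differences changed sign, since the genotypes then come from unequal experiments by construction, and 0 of 32 experiment differences did. Without TCRb-/- replicate 2 or WT replicate 1, the mean genotype differences of Neurod6, Neurod2, Tbr1, Mef2c and Lamp5 became positive. The replicate block changed no other call among the members. Depth limits Emx1, Neurod1 and Neurod2, where 1 read is worth 0.0382 to 0.050 CPM.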
